A study of Mus musculus with 9 samples.

Results

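Chromatin remodelling genes were examined in 8-cell mouse embryos after depletion of MFN1 or of histone H3.3. The 44 genes were chosen by symbol: the ATPases and main subunits of the SWI/SNF (BAF and PBAF), ISWI, CHD and NuRD, and INO80 and SWR1-like complexes, and 3 other SNF2-like enzymes. All 44 were found among the 55335 entries of each expression table. Transcripts were measured from cDNA made with an oligo-dT primer and enriched by PCR (Smart-Seq2), in embryos of ICR mice, an outbred strain, that had been injected with siRNA as zygotes and cultured to the 8-cell stage. The control group received a nontargeting siRNA, the MFN1-KD group siRNA against *Mfn1*, which encodes a mitochondrial fusion GTPase, and the H3.3-KD group siRNA against both *H3f3a* and *H3f3b*, which encode the replacement histone H3.3. Each group had 3 libraries, and the labels give 5 to 10 pooled embryos. Nothing in the labels says that the pools of a group came from separate collections, so the p-values measure the spread between these libraries.

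Chromatin remodellers use the energy of ATP to slide, evict or exchange nucleosomes. SWI/SNF complexes open chromatin at promoters and enhancers, ISWI complexes mainly space nucleosomes, NuRD joins the CHD3 or CHD4 ATPase to the histone deacetylases HDAC1 and HDAC2, and INO80 and SWR1-like complexes exchange the histone variant H2A.Z. H3.3 is deposited independently of replication, at active genes by the HIRA chaperone. In the mouse embryo, BRG1 supplied by the oocyte is required for zygotic genome activation, and CHD1 for full transcriptional output of the epiblast.

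The knockdowns were seen in the targeted genes. *Mfn1* was at 51.6, 22.6 and 23.8 FPKM in the 3 control libraries, at 9.54, 4.40 and 1.15 for MFN1-KD and at 100.2, 89.5 and 40.0 for H3.3-KD, and its log2 fold change in MFN1-KD was -2.66 ± 0.58 (SE, adjusted p = 0.0431), with adjusted p from 0.0244 to 0.158 over the other settings and with each library left out. *H3f3a* was measured at 1594, 2092 and 2110.3 FPKM in control, 1349, 1371 and 1288 under MFN1-KD and 169.7, 117 and 161 under H3.3-KD, and *H3f3b* was at 2903, 2895 and 3166 FPKM in control libraries, compared with 2831, 2836 and 2695 in the MFN1-KD and 311, 171 and 257 in the H3.3-KD libraries. The fold changes in H3.3-KD were -3.69 ± 0.20 (SE, adjusted p = 7.23e-06) for *H3f3a* and -3.64 ± 0.21 (SE, adjusted p = 8.96e-06) for *H3f3b*, so transcripts of both remained. All values are deposited FPKM (fragments scaled for gene length and library size), log2 fold changes are differences in mean log2(FPKM + 1), and adjusted p-values come from limma with Benjamini-Hochberg adjustment over the 13011 genes that averaged 1 FPKM or more. A gene is called at an adjusted p under 0.05.

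Libraries of the groups differed beyond these genes. The depth, estimated from the steps between low FPKM values, was 23500000 to 24750000 fragments in control, 24000000 to 25750000 for H3.3-KD and 18500000 to 23250000 for MFN1-KD, and 15577 to 20842 genes were above 0 FPKM in MFN1-KD against 21643 to 22507 in control and 23655 to 24820 in H3.3-KD. MFN1-KD replicate 3 was lowest in both. Of 15 genes of 8-cell and morula embryos, 13 exceeded 1 FPKM in every control library, 11 in every H3.3-KD library and 9 in every MFN1-KD library. Their summed level was 10920 to 14100 FPKM in control, 7033 to 8762 for H3.3-KD and 16960 to 20600 for MFN1-KD, and most of it was *Dppa3*, which was at 10642 to 13913 FPKM in control, 6244 to 7699 for H3.3-KD and 16697 to 20351 for MFN1-KD. *Cdx2*, which later marks trophectoderm, was at 0.06 to 0.09 FPKM in control, 0.57 to 6.24 for H3.3-KD and 0 to 0.06 for MFN1-KD, and *Sox2*, a pluripotency gene, at 0 to 0.10, 0.02 to 0.56 and 0 to 2.00 FPKM in that order. *Pou5f1* was at 5.10 to 8.90 FPKM in control, 63.1 to 392 for H3.3-KD and 0.30 to 3.68 for MFN1-KD. The summed level of the 9 genes of the 2-cell stage found was 8.25 to 20.0 FPKM in control, 13.3 to 189 for H3.3-KD and 32.3 to 93.8 for MFN1-KD. Of 10 cumulus and granulosa genes, only *Amhr2* exceeded 1 FPKM in any library. Of 6 blood cell genes, *Hba-a1* led, and their sum was 78.8 to 102 FPKM in control, 10.8 to 19.5 for H3.3-KD and 18.6 to 77.9 for MFN1-KD. The summed level of 12 oocyte genes was 80.8 to 86.9 FPKM in control, 67.5 to 181 for H3.3-KD and 46.8 to 131 for MFN1-KD. The part of these differences in the results was not tested, and fewer cells of a type and less RNA per cell cannot be told apart in pooled embryos.

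Control embryos held transcripts of each complex. Levels are in FPKM, which is per length. Differences in GC content and exon bases shared with other genes, such as 15.4% for *Ruvbl2*, were not corrected for here, so the order of genes is approximate. *Rbbp7*, a histone-binding WD40 subunit of ISWI complexes and NuRD, was highest at 370 ± 37.7 FPKM (SD, n = 3), followed by the SNF2-like ATPase gene *Smarcad1* at 330 ± 61.7, and their ranges overlapped. *Baz1a* at 105 ± 31.7, *Ruvbl2* at 91.8 ± 17.3, *Smarca5* at 89.8 ± 17.6 and *Ruvbl1* at 82.4 ± 2.57 FPKM came next, with means that differed by less than their spread. Among the SWI/SNF ATPases, *Smarca4* (BRG1) was at 16.9 ± 2.28 FPKM and *Smarca2* (BRM) at 6.32 ± 0.906. Of the ATPases of NuRD, *Chd4* was at 10.0 ± 2.94 FPKM and *Chd3* at 0.243 ± 0.222. Among the MTA scaffolds of NuRD, *Mta3* was at 61.4 ± 10.6 FPKM, *Mta2* at 15.5 ± 5.00 and *Mta1* at 0.0867 ± 0.133. *Chd3* and *Mta1* stayed under a mean of 1 FPKM and were not tested, which left 42 genes. *Chd3* was at 0.21, 0.04 and 0.48 FPKM in the 3 control libraries, at 0.39, 0.07 and 0.14 for MFN1-KD and at 0.25, 0.56 and 0.57 for H3.3-KD, and *Mta1* was measured at 0.24, 0 and 0.02 FPKM in control, 0, 0.20 and 0 under MFN1-KD and 0.79, 0.40 and 2.27 under H3.3-KD. Control replicate 1 was the highest control library for 41 of the 44 genes, compared with 51.3% of all genes tested.

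**Figure D1:**
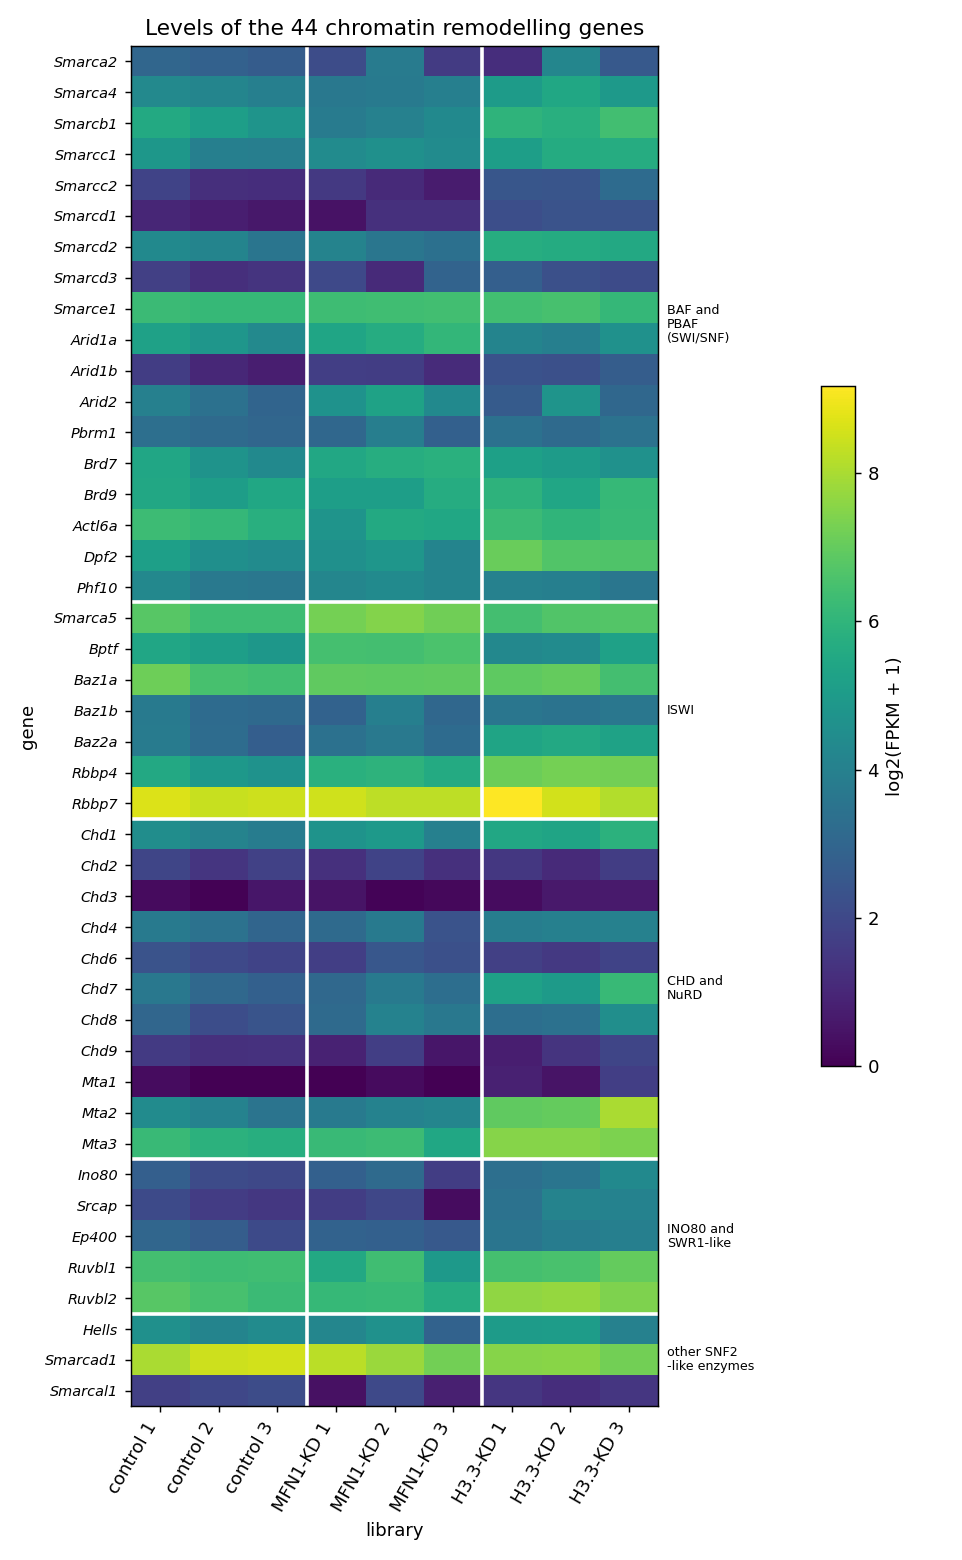
Level of each of the 44 genes (rows, grouped by complex family) in each of the 9 libraries (columns), as log2(FPKM + 1) on the colour scale. *Rbbp7* and *Smarcad1* are bright in every library, *Chd3* and *Mta1* are dark, and *Dpf2*, *Rbbp4* and *Mta2* are brighter in the 3 H3.3-KD libraries than in control.

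H3.3-KD embryos had higher levels of many of these genes. In H3.3-KD, 19 of the 42 genes tested rose (45.2%) and 1 fell (2.38%), beside 21.8% of all genes tested called higher and 9.12% called lower. The 19 were 8 of 18 SWI/SNF genes, 2 of 7 ISWI genes, 5 of 9 CHD and NuRD genes and 4 of 5 INO80 and SWR1-like genes, and the gene that fell was *Smarcad1*, 1 of 3 other SNF2-like enzymes. The study's threshold (over 2-fold, unadjusted p below 0.05) was set in the paper on DESeq2 results and was applied here to limma. With it 17 were higher and 0 lower, beside 23.9% and 9.39% of all genes. These counts are therefore not the paper's. No H3.3-KD library overlapped the control libraries for 22 genes that were higher and 2 that were lower, beside 34.5% and 18.9% of all genes. The median log2 fold change of the 42 genes was 0.51, and that of all genes was 0.26. This shift of all genes depends on scaling: with libraries scaled by median ratios it was 0.00, and 14 of the 42 were called higher and 1 lower, beside 16.3% and 13.4% of all genes. After the trend of each library with GC content and with transcript length was removed, 8 were called higher and 3 lower (11.6% and 12.2% of all genes), and without control replicate 2 or without control replicate 3, 11 were called higher (14.1% and 13.6% of all genes). The calls of *Dpf2*, *Baz2a*, *Rbbp4*, *Chd1*, *Chd7* and *Mta2* held in each of 10 alternatives and with each library left out in turn, and that of *Srcap*, whose mean was under 10 FPKM, in the 9 alternatives in which it was tested and with each library left out.

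In MFN1-KD embryos, 1 gene of the 42 was called, *Bptf*, which rose (2.38%), and 0 were called lower by limma, beside 1.15% and 2.20% of all genes. At an unadjusted p under 0.05, 7 were higher and 5 lower (16.7% and 11.9%), beside 9.21% and 14.0% of all genes. The study's threshold, applied to limma in the same way, gave 3 higher (*Arid2*, *Bptf* and *Chd8*) and 1 lower (*Smarcb1*), beside 5.02% and 9.05% of all genes. MFN1-KD and control libraries did not overlap for 8 genes that were higher and 3 that were lower, beside 11.4% and 16.8% of all genes. The median log2 fold change of the 42 genes was 0.06, and that of all genes was -0.08. Between the knockdowns, 3 genes were higher in MFN1-KD than in H3.3-KD and 18 were lower (7.14% and 42.9%), beside 11.0% and 27.6% of all genes. In that comparison no overlap was seen for 5 higher and 21 lower genes, beside 14.8% and 33.1% of all genes, the median of the 42 genes was -0.84, and that of all genes was -0.39. With median-ratio scaling 6 were higher and 13 lower, beside 16.3% and 20.9% of all genes, and with the GC and length trend removed 3 and 9, beside 14.3% and 13.9%. Both comparisons with control share the same 3 control libraries.

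**Figure D2:**
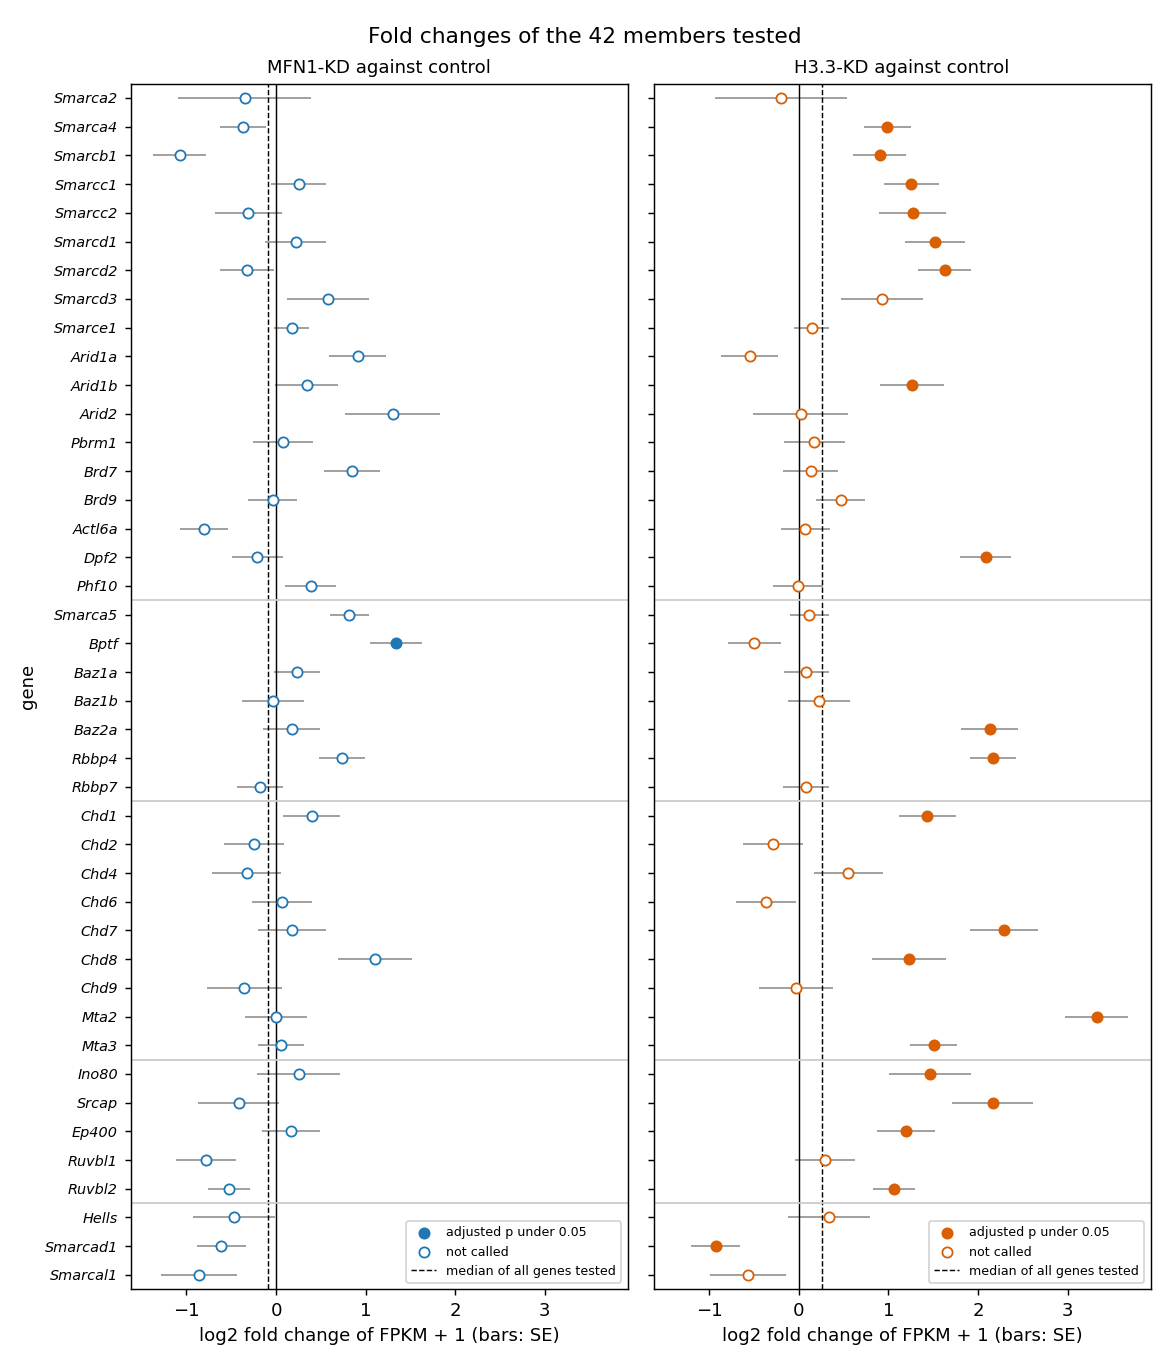
log2 fold change of FPKM + 1 (x axis) with its SE (bars) of the 42 genes tested, grouped by family, for each knockdown (MFN1-KD left, H3.3-KD right) against control. Filled points have an adjusted p under 0.05, the solid line is no change and the dashed line is the median of all genes tested. *Bptf* is the filled point in MFN1-KD, and 20 points are filled in H3.3-KD, of which *Smarcad1* lies to the left.

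Promoter sequences of 36 of the 44 genes were matched in RefSeq (GRCm38.p6). The 250 bases before the start are shown for the 3 genes with the smallest adjusted p in H3.3-KD and for *Bptf*, the gene called in MFN1-KD, because these carry the changes described next. In GENCODE M21 (GRCm38), *Mta2* lies at chr19:8941875-8952303 on the plus strand, *Rbbp4* at chr4:129307100-129335370 on the minus strand, *Dpf2* at chr19:5896516-5913010 on the minus strand and *Bptf* at chr11:107033081-107132127 on the minus strand, and the windows lie upstream of the RefSeq starts, which can differ from these gene models. Each runs 5′ to 3′ on the strand of its gene and ends 1 base before the listed start. Capitals mark matches, on either strand, to GGGCGG (the GC box), CCAAT (the CCAAT box), CCGGAAG (an ETS core) or AAGATGG (a YY1 core).
*Mta2*, chr19:8941670-8941919 (plus strand): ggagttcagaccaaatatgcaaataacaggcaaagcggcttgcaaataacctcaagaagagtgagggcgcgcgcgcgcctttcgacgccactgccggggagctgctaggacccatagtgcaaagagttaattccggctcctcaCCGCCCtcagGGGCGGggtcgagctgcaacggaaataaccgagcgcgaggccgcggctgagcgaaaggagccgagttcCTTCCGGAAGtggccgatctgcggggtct
*Rbbp4*, chr4:129335371-129335620 (minus strand): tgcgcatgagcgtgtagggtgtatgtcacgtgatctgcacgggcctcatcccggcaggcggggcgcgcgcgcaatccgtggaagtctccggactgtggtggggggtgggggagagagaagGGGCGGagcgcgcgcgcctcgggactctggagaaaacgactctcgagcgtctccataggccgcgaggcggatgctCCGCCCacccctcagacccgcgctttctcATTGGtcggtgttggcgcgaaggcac
*Dpf2*, chr19:5912872-5913121 (minus strand): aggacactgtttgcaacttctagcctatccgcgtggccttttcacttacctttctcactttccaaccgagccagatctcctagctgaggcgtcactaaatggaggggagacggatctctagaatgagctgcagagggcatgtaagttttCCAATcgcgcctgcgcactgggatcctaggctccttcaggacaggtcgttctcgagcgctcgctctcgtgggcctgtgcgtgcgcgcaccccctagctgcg
*Bptf*, chr11:107132148-107132397 (minus strand): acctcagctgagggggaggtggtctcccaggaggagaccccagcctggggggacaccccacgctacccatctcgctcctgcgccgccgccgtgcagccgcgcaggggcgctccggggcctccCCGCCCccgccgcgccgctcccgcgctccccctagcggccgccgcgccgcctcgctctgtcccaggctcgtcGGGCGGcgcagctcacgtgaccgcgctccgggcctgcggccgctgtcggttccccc
The *Mta2* window held 2 GC boxes and 2 overlapping ETS cores on opposite strands, which begin 29 and 26 bases before the start. *Rbbp4* had 2 GC boxes and 1 CCAAT box. The *Dpf2* window held 1 CCAAT box and 0 GC boxes, and that of *Bptf* 2 GC boxes. The ETS cores of *Mta2* and the CCAAT box of *Dpf2* lie inside the GENCODE gene models given above, not upstream of them. A GC box was found in 31 of the 36 promoters (86.1%) and in 32.7% of all 32851 promoters of the same length. The 36 promoters had a median of 23.0 CpGs and 66.6% GC, beside 6.0 CpGs and 52.4% GC for all promoters. Among genes called higher in H3.3-KD, 14 of 16 promoters (87.5%) held a GC box, beside 17 of 20 (85.0%) of the genes not called higher. A CCAAT box was found in 10 of the 36 (27.8%, all promoters 33.8%), an ETS core in 4 (11.1%, all promoters 6.91%) and a YY1 core in 1 (2.78%, all promoters 4.49%). A match to letters is not a bound site.

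Of the 18 SWI/SNF genes, 8 rose in H3.3-KD (44.4%), beside 21.8% of all genes. With the GC and length trend removed, *Smarcc1* and *Dpf2* were those of the 8 still called. That share of the 18 was close to the 11.6% of all genes called higher there. *Smarca4* encodes BRG1, the ATPase required at genome activation. *Smarca4* was at 19.1, 17.2 and 14.5 FPKM in the 3 control libraries, at 11.6, 12.5 and 14.5 for MFN1-KD and at 31.4, 43.1 and 29.9 for H3.3-KD. It rose in H3.3-KD, by 0.99 ± 0.26 (SE, adjusted p = 0.0158), with no overlap, and MFN1-KD overlapped control (-0.37 ± 0.26 (SE, adjusted p = 0.43)). The call was lost in 3 of 10 alternatives and without control replicate 2, control replicate 3 or H3.3-KD replicate 2, and the change was 0.0798 (adjusted p = 0.85) with the trend removed. The other ATPase gene, *Smarca2*, was measured at 7.25, 6.26 and 5.44 FPKM in control, 3.40, 12.9 and 2.04 under MFN1-KD and 1.28, 17.8 and 4.98 under H3.3-KD, and the libraries of each knockdown fell on both sides of control.

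*Smarcb1* encodes a core subunit that contacts the nucleosome acidic patch. It was at 46.6, 34.0 and 25.7 FPKM in control libraries, compared with 13.3, 15.4 and 19.3 in the MFN1-KD and 60.9, 54.6 and 83.1 in the H3.3-KD libraries, so that MFN1-KD lay below and H3.3-KD above control without overlap. The log2 fold change was 0.90 ± 0.29 (SE, adjusted p = 0.0394) for H3.3-KD and -1.08 ± 0.29 (SE, adjusted p = 0.0721) for MFN1-KD, and between the knockdowns it was -1.98 ± 0.29 (SE, adjusted p = 0.000627). Against control the call in H3.3-KD was lost in 5 of 10 alternatives and without control replicate 2, control replicate 3, H3.3-KD replicate 1, H3.3-KD replicate 2 or H3.3-KD replicate 3, while that between the knockdowns held in all of these. In MFN1-KD, *Smarcb1* was called lower with a filter at a mean of 10 FPKM, with the GC and length trend removed and with library weights. The scaffold genes were higher in H3.3-KD. *Smarcc1* (BAF155) was at 27.7, 14.4 and 14.1 FPKM in the 3 control libraries, at 20.4, 23.6 and 20.6 for MFN1-KD and at 34.6, 48.6 and 50.4 for H3.3-KD, and its fold change there was 1.25 ± 0.31 (SE, adjusted p = 0.0114). *Smarcc2* (BAF170) was measured at 2.56, 1.34 and 1.30 FPKM in control, 1.87, 1.16 and 0.62 under MFN1-KD and 4.54, 4.31 and 8.15 under H3.3-KD, far below its paralog, with 1.27 ± 0.37 (SE, adjusted p = 0.0263). Neither overlapped control. For *Smarcc1* the call was lost in 0 of 10 alternatives and without control replicate 2 or control replicate 3. For *Smarcc2* it was lost in 5 of 9 alternatives and without control replicate 2, control replicate 3 or H3.3-KD replicate 3, and the change was 0.39 (adjusted p = 0.425) with the trend removed.

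SMARCD subunits link the core to transcription factors. *Smarcd2*, the most abundant of the 3 paralogs, was at 19.4, 16.5 and 10.8 FPKM in control libraries, compared with 16.2, 11.0 and 9.40 in the MFN1-KD and 51.7, 49.5 and 45.3 in the H3.3-KD libraries. *Smarcd1* was at 0.97, 0.70 and 0.49 FPKM in the 3 control libraries, at 0.37, 1.39 and 1.40 for MFN1-KD and at 3.63, 4.03 and 4.04 for H3.3-KD, low values that rest on an estimated 27 fragments in the lowest library. Both rose in H3.3-KD without overlap, by 1.63 ± 0.30 (SE, adjusted p = 0.00283) for *Smarcd2* and by 1.52 ± 0.34 (SE, adjusted p = 0.00716) for *Smarcd1*, and neither passed the test in MFN1-KD. Both calls were lost with the trend removed, at 0.47 (adjusted p = 0.221) for *Smarcd2* and 0.30 (adjusted p = 0.536) for *Smarcd1*. *Smarcd3* ranged from 1.34 to 2.35 FPKM in control, from 3.29 to 5.83 for H3.3-KD and from 1.16 to 6.64 for MFN1-KD, and was not called. Of its exon bases, 48.2% are shared with genes on the opposite strand, and 12.7% of those of *Smarcd1*. The strand setting of the counting is not given in the sources used here, so reads of such neighbours could not be told apart.

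The ARID subunits define BAF and PBAF. *Arid1a* was measured at 37.0, 27.2 and 19.1 FPKM in control, 40.8, 50.2 and 65.7 under MFN1-KD and 16.7, 14.4 and 24.1 under H3.3-KD, with MFN1-KD above control and H3.3-KD overlapping it from below. Neither knockdown differed from control by the test, at 0.91 ± 0.32 (SE, adjusted p = 0.128) for MFN1-KD and -0.55 ± 0.32 (SE, adjusted p = 0.221) for H3.3-KD. In H3.3-KD this depended on the processing: *Arid1a* was called lower with upper-quartile scaling, with the GC and length trend removed and with library weights. Between the knockdowns the difference was 1.46 ± 0.32 (SE, adjusted p = 0.00517), which held in each alternative and with each library left out. *Arid1b* was at 2.18, 1.02 and 0.72 FPKM in control libraries, compared with 2.22, 2.17 and 1.20 in the MFN1-KD and 3.91, 3.75 and 5.54 in the H3.3-KD libraries, and it rose in H3.3-KD, by 1.26 ± 0.35 (SE, adjusted p = 0.0214), a call lost in 2 of 9 alternatives and without control replicate 2, control replicate 3 or H3.3-KD replicate 3. *Arid2*, the PBAF paralog, ranged from 6.77 to 15.1 FPKM in control, from 19.3 to 38.0 for MFN1-KD and from 5.17 to 25.8 for H3.3-KD, with an adjusted p of 0.176 in MFN1-KD.

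BAF and PBAF each have a PHD finger subunit. *Dpf2*, the BAF subunit, was at 34.8, 22.9 and 20.6 FPKM in the 3 control libraries, at 23.3, 27.0 and 16.7 for MFN1-KD and at 136, 102 and 99.98 for H3.3-KD. The H3.3-KD libraries were far above the others, which overlapped each other. The mean was 4.30 times that of control, with a log2 fold change of 2.09 ± 0.29 (SE, adjusted p = 0.000609). *Phf10*, its PBAF counterpart, ranged from 11.5 to 18.5 FPKM in control, from 11.2 to 15.4 for H3.3-KD and from 16.8 to 20.2 for MFN1-KD. Of the 4 PBAF subunit genes (*Arid2*, *Pbrm1*, *Brd7* and *Phf10*), 0 were called by limma in any of the 3 comparisons. Of all genes, 21.8% were called higher and 9.12% lower in H3.3-KD, and 1.15% and 2.20% in MFN1-KD. Between the knockdowns 11.0% were higher and 27.6% lower in MFN1-KD. With 4 genes, a count of 0 says little. Between the knockdowns *Arid2*, *Brd7* and *Phf10* were called higher in MFN1-KD with median-ratio and with upper-quartile scaling, *Arid2* without H3.3-KD replicate 2, and *Brd7* with the GC and length trend removed. At an unadjusted p under 0.05, *Arid2* and *Brd7* were higher in MFN1-KD than in control and than in H3.3-KD. *Pbrm1* ranged from 5.95 to 14.1 FPKM over the 9 libraries, and *Brd7* from 19.7 to 56.4.

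The remaining SWI/SNF genes gave 1 call, between the knockdowns. *Actl6a*, an actin-related subunit shared with INO80 and TIP60 complexes, was measured at 78.0, 69.0 and 54.5 FPKM in control, 26.0, 47.1 and 43.3 under MFN1-KD and 75.9, 63.0 and 71.2 under H3.3-KD. MFN1-KD lay below the other libraries, at -0.80 ± 0.27 (SE, adjusted p = 0.117) against control and -0.88 ± 0.27 (SE, adjusted p = 0.0268) against H3.3-KD. The second was lost in 5 of 10 alternatives and without H3.3-KD replicate 1, H3.3-KD replicate 2, H3.3-KD replicate 3 or MFN1-KD replicate 1, and was -0.11 (adjusted p = 0.804) with the trend removed. *Smarce1* ranged from 68.3 to 89.8 FPKM and *Brd9*, which marks non-canonical BAF, from 33.4 to 69.5 over the 9 libraries, and neither was called.

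ISWI genes gave the call in MFN1-KD. *Bptf*, the large NURF subunit that reads H3K4 methylation, was at 42.6, 34.7 and 27.6 FPKM in control libraries, compared with 87.7, 84.7 and 94.0 in the MFN1-KD and 18.3, 20.6 and 36.8 in the H3.3-KD libraries. The MFN1-KD libraries were tightly grouped at 2.54 times the control mean, and the H3.3-KD libraries overlapped control. Its log2 fold change was 1.34 ± 0.29 (SE, adjusted p = 0.0431) for MFN1-KD and -0.50 ± 0.29 (SE, adjusted p = 0.227) for H3.3-KD, and between the knockdowns it was 1.84 ± 0.29 (SE, adjusted p = 0.000964). The call against control was lost in 5 of 10 alternatives and without each library in turn other than H3.3-KD replicate 3, with adjusted p from 0.0101 to 0.178 and log2 fold changes from 1.14 to 1.49, while the difference between the knockdowns held in each. In H3.3-KD, *Bptf* was called lower with upper-quartile scaling, with the GC and length trend removed and with library weights. *Smarca5*, the ISWI ATPase SNF2H, was at 110.1, 80.2 and 79.0 FPKM in the 3 control libraries, at 152, 176 and 146 for MFN1-KD and at 85.5, 101 and 104 for H3.3-KD, so each MFN1-KD library exceeded the other 6. The fold change was 0.82 ± 0.21 (SE, adjusted p = 0.0642) against control and 0.70 ± 0.21 (SE, adjusted p = 0.0251) against H3.3-KD, and the latter call was lost in 3 of 10 alternatives and without H3.3-KD replicate 1, H3.3-KD replicate 2 or MFN1-KD replicate 2. Against control, *Smarca5* was called higher with median-ratio and upper-quartile scaling, with a filter at a mean of 10 FPKM and with library weights.

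The partners of SNF2H set the complex. *Baz2a* (TIP5), which targets it to ribosomal DNA in NoRC, was measured at 13.2, 8.48 and 5.77 FPKM in control, 9.83, 12.1 and 8.29 under MFN1-KD and 40.3, 45.7 and 38.5 under H3.3-KD. H3.3-KD stood apart with a mean 4.53 times that of control and 2.13 ± 0.32 (SE, adjusted p = 0.000915), and MFN1-KD overlapped control. *Baz1a* (ACF and CHRAC) ranged from 83.8 to 142 FPKM and *Baz1b* (WICH) from 6.48 to 14.7 over the 9 libraries, with adjusted p of at least 0.58 in each comparison. The histone-binding paralogs are shared with NuRD. *Rbbp4* was at 45.9, 29.1 and 24.6 FPKM in control libraries, compared with 55.1, 59.5 and 48.1 in the MFN1-KD and 138, 153 and 150.0 in the H3.3-KD libraries. It rose in H3.3-KD to 4.44 times the control mean, at 2.16 ± 0.26 (SE, adjusted p = 0.000307), and was at 0.74 ± 0.26 (SE, adjusted p = 0.126) in MFN1-KD without overlap. Of the exon bases of *Rbbp4*, 18.0% are shared with genes on the opposite strand, whose reads could not be told apart. *Rbbp7* ranged from 341 to 413 FPKM in control, from 305 to 368 for MFN1-KD and from 279 to 577 for H3.3-KD, and was not called.

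NuRD genes held the largest fold change of the 42 genes. *Mta2*, a scaffold that joins the deacetylases to the complex, was at 20.4, 15.6 and 10.4 FPKM in the 3 control libraries, at 12.4, 15.9 and 16.9 for MFN1-KD and at 121, 127 and 257 for H3.3-KD. All H3.3-KD libraries were far above the other 6, which overlapped. The mean was 10.9 times that of control, and the log2 fold change was 3.32 ± 0.35 (SE, adjusted p = 0.000198) for H3.3-KD and 0.00 ± 0.35 (SE, adjusted p = 1) for MFN1-KD. *Mta3* was measured at 73.3, 58.1 and 52.8 FPKM in control, 74.4, 77.9 and 43.6 under MFN1-KD and 181, 179 and 163 under H3.3-KD, and it also rose, by 1.50 ± 0.26 (SE, adjusted p = 0.00215), or 0.59 (adjusted p = 0.0551) with the GC and length trend removed. The ATPase gene *Chd4* was at 12.9, 10.1 and 7.01 FPKM in control libraries, compared with 7.91, 12.7 and 4.12 in the MFN1-KD and 13.8, 15.0 and 15.4 in the H3.3-KD libraries, with H3.3-KD above control in each library but an adjusted p of 0.302.

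**Figure D3:**
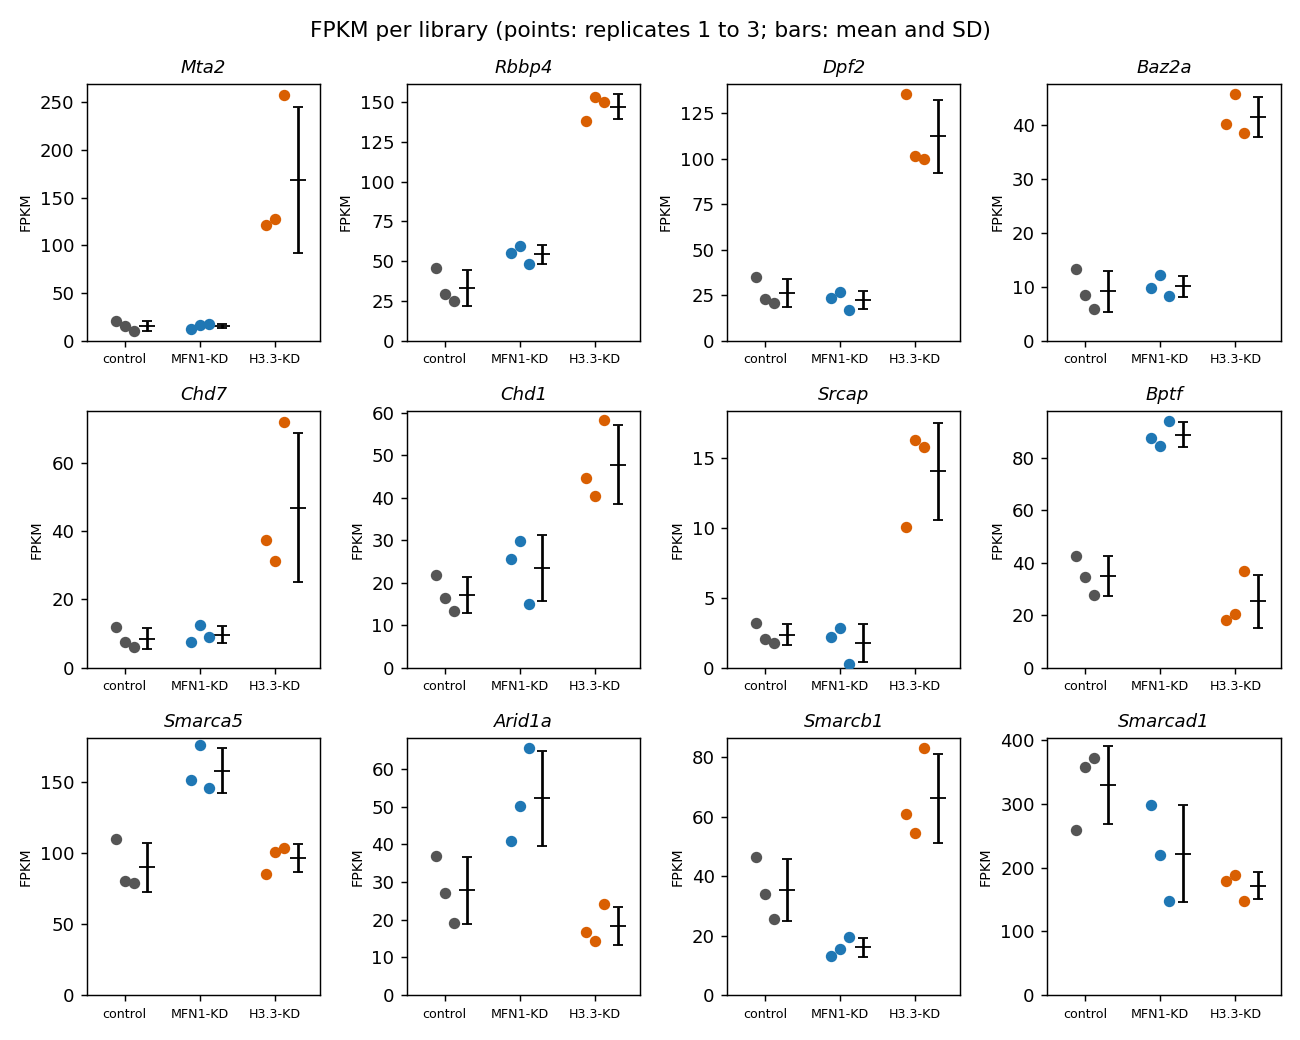
FPKM of 12 genes in each library (points) with the mean and SD of each group (bars, n = 3), on linear axes from 0. The 3 H3.3-KD points lie above all others for *Mta2*, *Rbbp4*, *Dpf2*, *Baz2a*, *Chd7*, *Chd1*, *Srcap* and *Smarcb1*. The MFN1-KD points lie above all others for *Bptf*, *Smarca5* and *Arid1a* and below all others for *Smarcb1*.

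The CHD enzymes outside NuRD gave 3 of the 5 calls among CHD and NuRD genes in H3.3-KD. Those 5 of 9 genes (55.6%) stood beside 21.8% of all genes called higher. *Chd1*, which moves nucleosomes at transcribed genes, was at 21.7, 16.4 and 13.4 FPKM in the 3 control libraries, at 25.6, 29.9 and 14.9 for MFN1-KD and at 44.7, 40.5 and 58.1 for H3.3-KD. *Chd7*, the gene mutated in CHARGE syndrome, was measured at 11.9, 7.66 and 5.98 FPKM in control, 7.55, 12.4 and 8.89 under MFN1-KD and 37.4, 31.4 and 72.0 under H3.3-KD. Both rose in H3.3-KD without overlap, by 1.43 ± 0.32 (SE, adjusted p = 0.00714) for *Chd1* and by 2.29 ± 0.38 (SE, adjusted p = 0.00164) for *Chd7*, and both overlapped control in MFN1-KD. *Chd8* was at 7.13, 3.53 and 4.18 FPKM in control libraries, compared with 8.06, 15.6 and 11.6 in the MFN1-KD and 9.04, 9.73 and 22.1 in the H3.3-KD libraries, so that both knockdowns lay above control. Its log2 fold change was 1.23 ± 0.41 (SE, adjusted p = 0.0438) for H3.3-KD and 1.11 ± 0.41 (SE, adjusted p = 0.147) for MFN1-KD, and the knockdowns did not differ by the test (-0.13 ± 0.41 (SE, adjusted p = 0.83)). The call in H3.3-KD was lost in 5 of 10 alternatives and without control replicate 2, control replicate 3, H3.3-KD replicate 2 or H3.3-KD replicate 3. *Chd2*, *Chd6* and *Chd9* stayed between 0.46 and 4.67 FPKM over the 9 libraries and were not called. *Chd2* shares 19.3% of its exon bases with other genes.

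INO80 and SWR1-like genes rose in H3.3-KD in 4 of 5 (80%), beside 21.8% of all genes, and in 1 of 5, *Srcap*, with the GC and length trend removed, beside 11.6%. *Ino80*, the ATPase of its complex, was at 5.84, 3.31 and 3.02 FPKM in the 3 control libraries, at 6.08, 8.01 and 2.14 for MFN1-KD and at 9.11, 10.9 and 19.7 for H3.3-KD, at 1.46 ± 0.46 (SE, adjusted p = 0.0339) in H3.3-KD. Its call was lost in 5 of 9 alternatives and without control replicate 2, control replicate 3, H3.3-KD replicate 2 or H3.3-KD replicate 3. *Srcap*, the ATPase that loads H2A.Z, was measured at 3.19, 2.06 and 1.78 FPKM in control, 2.17, 2.86 and 0.23 under MFN1-KD and 10.0, 16.3 and 15.8 under H3.3-KD. The log2 fold change was 2.16 ± 0.45 (SE, adjusted p = 0.00537), but 65.0% of its exon bases are shared with other annotated genes, so its level is uncertain. *Ep400*, the ATPase of the TIP60 complex, was at 7.15, 5.48 and 3.16 FPKM in control libraries, compared with 6.44, 6.01 and 4.95 in the MFN1-KD and 10.9, 13.3 and 14.5 in the H3.3-KD libraries, at 1.19 ± 0.33 (SE, adjusted p = 0.0193) in H3.3-KD, a call lost in 2 of 9 alternatives and without control replicate 2, control replicate 3, H3.3-KD replicate 2 or H3.3-KD replicate 3. Each of the 3 was above control without overlap in H3.3-KD, and each overlapped control in MFN1-KD.

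The AAA+ ATPases *Ruvbl1* and *Ruvbl2* form a ring shared by these complexes. *Ruvbl2* was at 109.7, 90.4 and 75.2 FPKM in the 3 control libraries, at 69.4, 71.4 and 50.0 for MFN1-KD and at 198, 208 and 169 for H3.3-KD, below control in MFN1-KD and above it in H3.3-KD without overlap. The log2 fold change was 1.07 ± 0.23 (SE, adjusted p = 0.00672) in H3.3-KD, -0.52 ± 0.23 (SE, adjusted p = 0.212) in MFN1-KD and -1.59 ± 0.23 (SE, adjusted p = 0.000591) between the knockdowns. Once the trend over GC content and length was removed, the change in H3.3-KD turned to -0.08. The difference between the knockdowns was then -0.0966 (limma, adjusted p = 0.722). Of the exon bases of *Ruvbl2*, 15.4% are shared with other genes. *Ruvbl1* was measured at 85.0, 79.9 and 82.2 FPKM in control, 45.2, 81.2 and 29.3 under MFN1-KD and 87.9, 92.7 and 127 under H3.3-KD, at 0.29 ± 0.33 (SE, adjusted p = 0.539) for H3.3-KD and -0.78 ± 0.33 (SE, adjusted p = 0.195) for MFN1-KD, and at -1.07 ± 0.33 (SE, adjusted p = 0.0276) between the knockdowns. That call was lost in 5 of 10 alternatives and without H3.3-KD replicate 2, H3.3-KD replicate 3, MFN1-KD replicate 1 or MFN1-KD replicate 3, and was -0.0716 (adjusted p = 0.86) with the trend removed.

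Of the other SNF2-like enzymes, *Smarcad1*, which is needed to restore heterochromatin after replication, was at 259, 358 and 372 FPKM in control libraries, compared with 299, 219.9 and 147 in the MFN1-KD and 179, 188 and 148 in the H3.3-KD libraries. All H3.3-KD libraries were below control, and the gene fell by 0.93 ± 0.27 (SE, adjusted p = 0.0263). That call was lost when FPKM was rescaled to TPM, without the filter, after the GC and length trend was removed, and without control replicate 2, control replicate 3 or any 1 of the H3.3-KD libraries, with adjusted p from 0.00062 to 0.136. In MFN1-KD the change was -0.61 ± 0.27 (SE, adjusted p = 0.213). *Hells* (LSH), a partner of DNA methylation, was at 23.6, 16.5 and 20.2 FPKM in the 3 control libraries, at 17.5, 23.9 and 6.48 for MFN1-KD and at 32.2, 32.8 and 15.5 for H3.3-KD, and its groups overlapped. *Smarcal1*, a fork-remodelling enzyme, ranged from 2.31 to 3.39 FPKM in control, from 1.30 to 1.75 for H3.3-KD and from 0.34 to 3.07 for MFN1-KD, and was not called.

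Shares of paralogs were computed within each library, so they do not depend on how libraries were scaled. They were not recomputed with the GC and length trend removed. The GC content was 51.1% for *Dpf2* and 42.4% for *Phf10*, and 53.4% for both *Mta2* and *Mta3*. The share of summed FPKM was taken for 13 pairs or groups in 3 comparisons, that is 39 tests. With 3 libraries against 3, a two-sided exact permutation test cannot give a p below 0.10, and the smallest value after Benjamini-Hochberg adjustment was 0.26. Shares did not overlap between groups for 6 of 13 in H3.3-KD, 4 in MFN1-KD and 5 between the knockdowns. Levels of all genes tested were higher or lower without overlap in 34.5% and 18.9% for H3.3-KD and 11.4% and 16.8% for MFN1-KD. Between the knockdowns this was 14.8% and 33.1%. Those are levels of single genes, so they are not a like measure of shares. *Dpf2* made up 65.1 ± 0.820% (SD, n = 3) of *Dpf2* and *Phf10* in control, 89.1 ± 1.30% for H3.3-KD and 54.7 ± 4.18% for MFN1-KD. *Arid1a* made up 95.7 ± 1.12% of *Arid1a* and *Arid1b* in control, 80.6 ± 1.06% for H3.3-KD and 96.3 ± 1.73% for MFN1-KD. For *Mta2* in *Mta2* and *Mta3*, the shares were 19.8 ± 2.90%, 47.6 ± 11.8% and 19.8 ± 7.27% in that order. For these 3 pairs every H3.3-KD library was outside the control range.

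*Rbbp7* made up 91.9 ± 1.79% of *Rbbp7* and *Rbbp4* in control, 72.1 ± 7.92% for H3.3-KD and 85.7 ± 1.78% for MFN1-KD. *Ruvbl1* was 47.6 ± 4.33% of *Ruvbl1* and *Ruvbl2* in control and 34.8 ± 7.02% in H3.3-KD. The share of *Smarcd1* among the 3 SMARCD genes was 3.95 ± 0.282% in control and 6.88 ± 0.881% in H3.3-KD. In MFN1-KD, *Brd9* was 43.7 ± 3.3% of *Brd9* and *Brd7*, against 59.1 ± 8.82% in control, and *Smarcc1* 94.7 ± 2.81% of *Smarcc1* and *Smarcc2*, against 91.5 ± 0.0430%. The *Smarcc1* share was at 91.58% in MFN1-KD replicate 1 and 91.57% in control replicate 3. Rounding of the low *Smarcc2* values can produce such a gap, so the lack of overlap for this pair shows little. *Smarca4* was 72.8 ± 0.437% of both SWI/SNF ATPase genes in control, and its share ranged from 70.8 to 96.1% for H3.3-KD and from 49.2 to 87.7% for MFN1-KD, on both sides of control. The remaining shares (*Arid1a* and *Arid1b* against *Arid2*, *Chd4* against *Chd3*, *Mta1* among the MTA genes and *Baz1a* against *Baz1b*) overlapped between all groups.

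**Figure D4:**
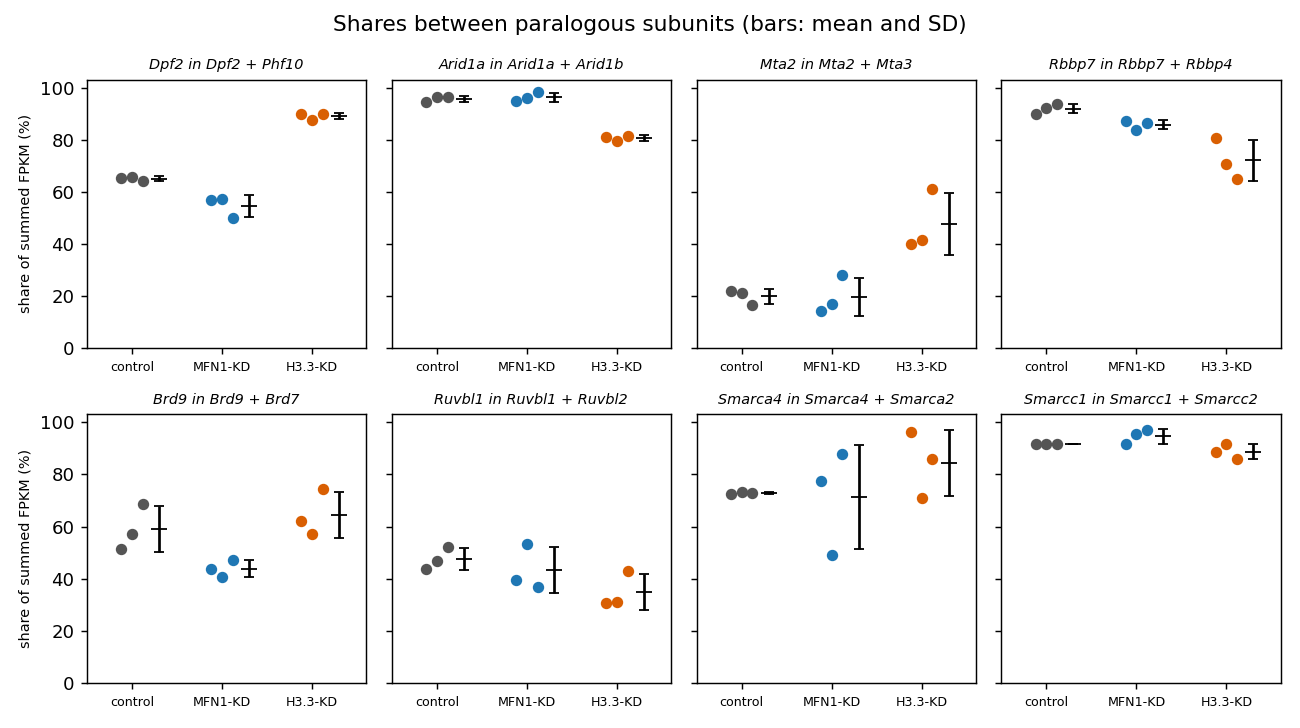
Share of the first-named gene in the summed FPKM of 2 paralogs (y axis, percent) in each library (points), with the mean and SD of each group (bars, n = 3), for 8 pairs. The *Dpf2* share is between 87.6 and 90.0% in H3.3-KD and between 64.2 and 65.7% in control, and the *Smarca4* share spreads widely in both knockdowns.

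Further subunits of the same complexes were counted from a list of 59 genes, of which 50 were tested. In H3.3-KD 18 rose (36.0%) and 2 fell (4%), beside 21.8% and 9.12% of all genes. In MFN1-KD 1 rose (2%) and 3 fell (6%), beside 1.15% and 2.20%, and between the knockdowns 6 were higher (12%) and 20 lower (40.0%) in MFN1-KD, beside 11.0% and 27.6%. With median-ratio scaling 13 rose and 7 fell in H3.3-KD, beside 16.3% and 13.4% of all genes, and 10 were higher and 15 lower between the knockdowns, beside 16.3% and 20.9%. The 18 were 3 of 6 further SWI/SNF genes, 0 of 5 ISWI genes, 5 of 7 CHD and NuRD genes, 9 of 24 INO80 and SWR1-like genes and 1 of 8 other SNF2-like enzymes. *Kat5* (TIP60, an acetyltransferase) was at 6.28, 3.21 and 3.57 FPKM in the 3 control libraries, at 3.48, 5.45 and 5.76 for MFN1-KD and at 48.5, 52.6 and 44.8 for H3.3-KD, at 3.25 ± 0.32 (SE, adjusted p = 0.000141) in H3.3-KD. The INO80 subunit genes *Actr5* and *Ino80b* also rose there, by 2.80 ± 0.29 (SE, adjusted p = 0.000171) and by 2.64 ± 0.33 (SE, adjusted p = 0.00038). *Actr6*, of the SRCAP complex, and *Pole3*, of CHRAC, fell in H3.3-KD, at -1.13 ± 0.29 (SE, adjusted p = 0.0145) and at -0.75 ± 0.26 (SE, adjusted p = 0.0473). For *Actr6* the call was lost in 2 of 10 alternatives and without control replicate 3 or H3.3-KD replicate 2, and for *Pole3* lost in 4 of 10 alternatives and without control replicate 1, control replicate 2, control replicate 3, H3.3-KD replicate 2, H3.3-KD replicate 3 or MFN1-KD replicate 1.

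*Hdac1*, which encodes 1 of the deacetylases of NuRD, moved in opposite directions. It was measured at 84.3, 78.8 and 69.8 FPKM in control, 33.7, 34.0 and 44.9 under MFN1-KD and 281, 304 and 221 under H3.3-KD, and its log2 fold change was -1.04 ± 0.22 (SE, adjusted p = 0.0404) for MFN1-KD and 1.77 ± 0.22 (SE, adjusted p = 0.00041) for H3.3-KD. *Vps72*, the H2A.Z chaperone of SRCAP and TIP60, was at 19.0, 15.7 and 15.1 FPKM in control libraries, compared with 5.43, 7.47 and 5.04 in the MFN1-KD and 81.1, 57.7 and 68.8 in the H3.3-KD libraries, with -1.34 ± 0.26 (SE, adjusted p = 0.0359) for MFN1-KD and 1.99 ± 0.26 (SE, adjusted p = 0.000542) for H3.3-KD. For both, all MFN1-KD libraries were below control and all H3.3-KD libraries above it. *Cdk2ap1*, a NuRD-associated subunit, fell in MFN1-KD, at -1.20 ± 0.21 (SE, adjusted p = 0.0333), and *Yy1*, a DNA-binding partner of INO80, rose there, by 1.55 ± 0.33 (SE, adjusted p = 0.0404). These 4 genes are those called in MFN1-KD, and 0 of the further subunits were called there by limma with no filter, with only the 6 libraries compared, with the replicate block, or without control replicate 2, control replicate 3, H3.3-KD replicate 1 or H3.3-KD replicate 2. With the GC and length trend removed, *Hdac1* was at -0.65 (adjusted p = 0.18) and *Cdk2ap1* at -0.70 (adjusted p = 0.171). *Yy1*, at 1.51 (limma, adjusted p = 0.0516), was also no longer called, and *Vps72* stayed called at -1.14 (adjusted p = 0.0436). Over 10 alternatives, the call in MFN1-KD was lost in 6 for *Hdac1* and in 4 each for *Vps72*, *Cdk2ap1* and *Yy1*. Of 9 fits that each omitted a single library, 7 lost it for *Hdac1*, 7 for *Vps72*, 6 for *Yy1* and 4 for *Cdk2ap1*. The changes of *Hdac1* and *Vps72* in H3.3-KD and between the knockdowns held in each setting. *Hdac2*, the other deacetylase gene of NuRD, did not move in opposite directions. It rose in H3.3-KD, by 1.31 (limma, adjusted p = 0.00224). Its MFN1-KD libraries also lay above control without overlap, but it was not called there.

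The genes called higher in H3.3-KD had a median GC content of 52.4%, beside 48.0% for the 22 genes not called and 48.9% for all genes tested. The median of the longest transcript was 6354 bases for the 19 genes and 6017 bases for the 22, beside 2574 bases for all genes. Calls in H3.3-KD fell to 8 once the trend over both was removed, as given above, and those 8 were *Smarcc1* and the 7 named there.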

How the data were processed

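Per the labels and the paper's methods, the authors used cutadapt 1.16 for trimming and STAR for alignment to mm10, and deposited FPKM, which is per gene length and library size, rounded to 2 decimals. The program that made FPKM, the annotation and the strand setting are not given in the sources used here, and read counts were not used here. Genes were matched by symbol, and 98.14% of those tested had GC content and length in GENCODE M21. Genes averaging 1 FPKM or more were tested with limma 3.58.1 (trend and robust options) on log2(FPKM + 1) in a single fit of the 9 libraries without covariates, which was checked on simulated data. Fold changes on this scale understate changes of low genes. Depth was estimated as the number of fragments at which low FPKM values gave whole fragments; 73.14 to 85.23% of the values tested per library came within 0.1 fragment, beside 20% by chance. Shares were compared by two-sided exact permutation tests. Each gene called in any comparison, and the main ATPase genes, were given in every library, and at most the 3 further subunits with the smallest adjusted p per comparison and direction were named. *Hdac2* was named beside them as the other deacetylase gene of NuRD. The genes and lists were chosen with earlier results of these data known. Alternatives were a pseudocount of 0.1, median-ratio, upper-quartile and TPM scaling, no filter, a mean of 10 FPKM, only the libraries compared, replicate block, removal of GC and length trends (splines with 5 degrees of freedom), library weights, and leaving out each library.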

Additional observations from a re-analysis of the deposited data

Results flagged for a closer look

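Opposite sides of control were taken in 2 of the 42 genes tested (4.76%) and in 10 of the 50 further subunits tested (20.0%), beside 7.08% of all genes: every library of one knockdown lay above all control libraries and every library of the other below them, with an adjusted p under 0.05 in limma between the knockdowns. For *Smarcb1* and *Ruvbl2*, MFN1-KD was below control and H3.3-KD above it, and MFN1-KD minus H3.3-KD was -1.98 and -1.59 on the log2 scale. The same order was seen in *Vps72*, *Hdac1* and *Ino80b*, with differences of -3.33, -2.81 and -3.26, and in *Ino80e*, *Tfpt*, *Bcl7c* and *Mcrs1*, with -3.58, -2.22, -2.11 and -1.66. *Ino80b* was at 1.02 to 1.24 FPKM in control and listed at 0 in MFN1-KD replicate 3, so its value in MFN1-KD rests on very few fragments. *Uchl5*, *Rsf1* and *Shprh* had the opposite order, with differences of 1.32, 1.23 and 1.28. With the GC and length trend removed, the difference was -0.0966 for *Ruvbl2* (limma, adjusted p = 0.722) and -0.237 for *Mcrs1* (adjusted p = 0.508). *Rsf1*, at 0.653 (adjusted p = 0.0735), and *Shprh*, at 0.767 (adjusted p = 0.125), were also no longer called. The differences of the other genes named here stayed called. *Ino80e*, *Tfpt*, *Bcl7c*, *Mcrs1* and *Shprh* are named for this pattern, after their values were seen. Both comparisons with control use the same 3 libraries, and the cause was not tested.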

How the results depend on the processing

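In MFN1-KD, where 1 gene was called higher and 0 lower, the count called higher was 2 with median-ratio scaling (1.35% of all genes), upper-quartile scaling (1.61%) and a filter at a mean of 10 FPKM (4.01%), 3 with library weights (4.38%), and 0 with TPM, no filter, only the 6 libraries compared and the GC and length trend removed (0.684%, 0%, 0% and 0.877%). The count called lower was 1 with the filter at 10 FPKM (7.06%) and with the trend removed (1.47%), and 2 with library weights (6.33%). *Smarcb1* was called lower in each of these settings, and *Actl6a* with library weights. Beside *Bptf*, *Smarca5* was called higher in each setting with more than 1 higher, and *Rbbp4* with library weights. Leaving out 1 library gave 0 to 1 higher and 0 to 1 lower. In H3.3-KD (19 higher, 1 lower), 12 were higher with upper-quartile scaling (14.5%) and 8 with the trend removed (11.6%). The count lower was 3 with each of these (15.1% and 12.2%) and with library weights (17.3%), and 0 with TPM and no filter. Leaving out 1 library gave 11 to 19 higher and 0 to 1 lower. Between the knockdowns (3 higher, 18 lower in MFN1-KD), 6 were higher and 13 lower with median-ratio scaling (16.3% and 20.9%), 7 and 13 with upper-quartile scaling (18.2% and 19.1%), and 3 and 9 with the trend removed (14.3% and 13.9%). Leaving out 1 library gave 2 to 3 higher and 13 to 20 lower. Over all genes, TPM scaling gave 30.7% higher and 5.35% lower in H3.3-KD, upper-quartile scaling 14.5% and 15.1%, and without a filter 8.02% and 2.56% of 32672 genes. With the trend removed, some values changed sign. Among them, the median of the members minus that of all genes in MFN1-KD turned to -0.0528. *Ruvbl2* in H3.3-KD turned to -0.0782, and *Smarcd1* between the knockdowns to 0.0429. The median of the 42 genes in MFN1-KD turned to -0.0369. Medians of all genes also turned, to 0.0159 in MFN1-KD, -0.0234 in H3.3-KD and 0.0142 between the knockdowns. The cause of these changes was not tested. Replicate numbers are shared between groups, but same-numbered libraries did not deviate together (Pearson's r across genes from -0.05 to 0.16), so the numbers were not taken as pairs. With the replicate block, 0 genes were called higher and 0 lower in MFN1-KD, 16 higher and 1 lower in H3.3-KD, and 3 higher and 18 lower between the knockdowns. The low genes *Chd3*, *Mta1*, *Smarcd1* and *Smarcc2* rest on few fragments, which limits what their values can show. In their lowest library, *Smarcal1* and *Srcap* rest on an estimated 30 and 45 fragments, which limits those values too.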
